A study of Bos taurus with 64 samples.

Results

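bta-miR-22-3p, called miR-22-3p here, is the abundant arm of the cattle miR-22 hairpin, here in skeletal muscle of growing steers of a dairy breed, Holstein-Friesian, and a beef breed, Charolais. It is 1 of 1030 miRNA names in the deposited count table and 1 of the 318 that passed the filter on low counts, and it was picked by name for its lower values in Holstein-Friesian steers. Its breed difference is therefore given as a description, with no test. The choice was made on breed, and differences by diet, by feed-efficiency class and in the balance of the hairpin's arms were tested. The interactions of breed with diet and with feed-efficiency class were tested too. They are made of breed values by group, which were in view at the choice. Diet and feed-efficiency differences within a breed are made of the same group values.

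A miRNA is a short RNA that guides a silencing complex to matching sites in messenger RNAs, which lowers their translation or stability. One hairpin precursor can give a product from each of its arms, and usually 1 arm dominates. miR-22 is conserved among mammals and is abundant in heart and skeletal muscle. In mice it is needed for the normal growth response of the heart to stress, and its reported targets include the deacetylases Sirt1 and Hdac4 and Ppara, a regulator of fatty acid use. In the RefSeq gene table of the cattle assembly ARS-UCD2.0, the MIR22 record overlapped TLCD2 and a second miRNA record, MIR3600, with PRPF8 and WDR81 as the next neighbours. That assembly is not the one named in the submitters' notes, so it was used for names and neighbours only. The row of miR-3600 held 0 counts in all 64 libraries, which allows at most 6.26e-05% of the counts in the smallest library (3 counts, counting error only). Whether reads of the MIR22 and MIR3600 records can be told apart was not examined.

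The 64 libraries form 8 groups of 8: Holstein-Friesian with low or high residual feed intake (RFI) on concentrate, the same on grass, and the 4 matching groups of Charolais. RFI is the feed an animal eats above or below the amount predicted from its size and growth, so a low-RFI steer is the more efficient. Feed intake had been recorded in 77 Holstein-Friesian and 90 Charolais steers over a pair of 70-day phases with 14 days of acclimatisation between them. The earlier phase fed freshly cut ryegrass and the later one barley-based concentrate offered freely with restricted silage, so every concentrate library came from the later phase, and diet cannot be told apart from phase or age. The 64 libraries came from 59 steers, 5 of which gave a library on each diet. The labels give neither the muscle nor the ages.

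The libraries held between 4795950 and 12245155 counts, with a median of 8143027. Levels are given in CPM, counts put on 1 scale for all libraries by TMM factors, which level the libraries through the bulk of their miRNAs. The lowest TMM factor was 0.511, for replicate 3 of low-RFI Holstein-Friesian on concentrate, and the highest 2.43, for high-RFI Holstein-Friesian grass replicate 1, and these 2 libraries stood farthest from the median factor on the log2 scale. The factors' median was 1.14 in Holstein-Friesian and 0.946 in Charolais libraries. miR-10b, the most abundant miRNA, took 57.5% ± 10.5 of the counts in Holstein-Friesian and 56.1% ± 7.26 in Charolais libraries (SD, n = 32 each). The 6 striated-muscle miRNAs were all detected, and their summed level had a median of 77077 CPM in Holstein-Friesian (range 35566 to 133421) and 86328 CPM in Charolais (range 48674 to 153744). This sum is mainly miR-133a, which averaged 74311 CPM over all libraries. The next of the 6, miR-133b, averaged 8983 CPM. The liver miRNA miR-122 had a median of 0 CPM in both breeds, and 4 epithelial miRNAs together had medians of 1.79 CPM in Holstein-Friesian and 2.00 CPM in Charolais libraries. For 3 neuronal miRNAs the medians were 2.11 CPM in Holstein-Friesian and 1.85 CPM in Charolais, and for the endothelial miR-126 arms 6564 CPM in Holstein-Friesian and 5984 CPM in Charolais. The smooth-muscle miRNAs miR-143 and miR-145 had summed medians of 29643 CPM in Holstein-Friesian and 25543 CPM in Charolais.

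miR-22-3p averaged 25723 ± 6593 CPM (SD, n = 64), which put it at rank 6 of the 318 tested miRNAs, and it ranked between 5 and 8 in each library. As a share of all counts it ran from 0.996% in replicate 3 of low-RFI Holstein-Friesian on concentrate (95% Wilson interval 0.9891 to 1.003, which covers counting error only) to 6.82% in high-RFI Holstein-Friesian grass replicate 1 (6.8088 to 6.837). These are the same 2 libraries whose scaling factors stood apart, and after TMM scaling they held 19497 and 28033 CPM, inside the range of the other libraries of their breed. The SD of log2 CPM within groups was 0.337, against a median of 0.356 over the 172 tested miRNAs that averaged 10 CPM or more. At these counts, sampling error is small beside the spread between steers.

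On concentrate, low-RFI Holstein-Friesian steers had 18964 CPM at the lowest, a median of 23458 and 30464 at the highest (mean 23449 ± 3614, n = 8). High-RFI Holstein-Friesian steers on concentrate had 16429, 23799 and 28794 CPM in the same order (mean 23527 ± 4341, n = 8). These groups covered nearly the same range. On grass, low-RFI Holstein-Friesian steers had 13726 CPM at the lowest, a median of 22777 and 33285 at the highest (mean 22463 ± 7687, n = 8). High-RFI Holstein-Friesian steers on grass had 15171, 21955 and 28033 CPM (mean 21753 ± 4477, n = 8). The low-RFI grass group had the largest SD of the 8 groups, with 4 libraries between 13726 and 19166 CPM and 4 between 26389 and 33285 CPM.

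Among Charolais on concentrate, low-RFI steers had 14907 CPM at the lowest, a median of 26168 and 38044 at the highest (mean 25827 ± 6764, n = 8). High-RFI Charolais on concentrate had 16952, 26594 and 34246 CPM (mean 26855 ± 5472, n = 8). Both ranges overlap widely with those of the Holstein-Friesian groups on concentrate. On grass, low-RFI Charolais had 22571 CPM at the lowest, a median of 33290 and 45166 at the highest (mean 34068 ± 7052, n = 8), the highest level of the 8 groups. High-RFI Charolais on grass had 21742, 26408 and 37593 CPM (mean 27845 ± 5196, n = 8). Ordered by mean, low-RFI Charolais on grass stood 1.005 pooled SD above the next group, high-RFI Charolais on grass. The next neighbours, high-RFI and then low-RFI Charolais on concentrate, lay 0.186 and 0.167 SD lower. The step down to the first Holstein-Friesian group, high RFI on concentrate, was 0.405 SD, and the last 3 steps within Holstein-Friesian were 0.02, 0.164 and 0.113 SD. Every pair of neighbours in this order overlapped in range.

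**Figure D1:**
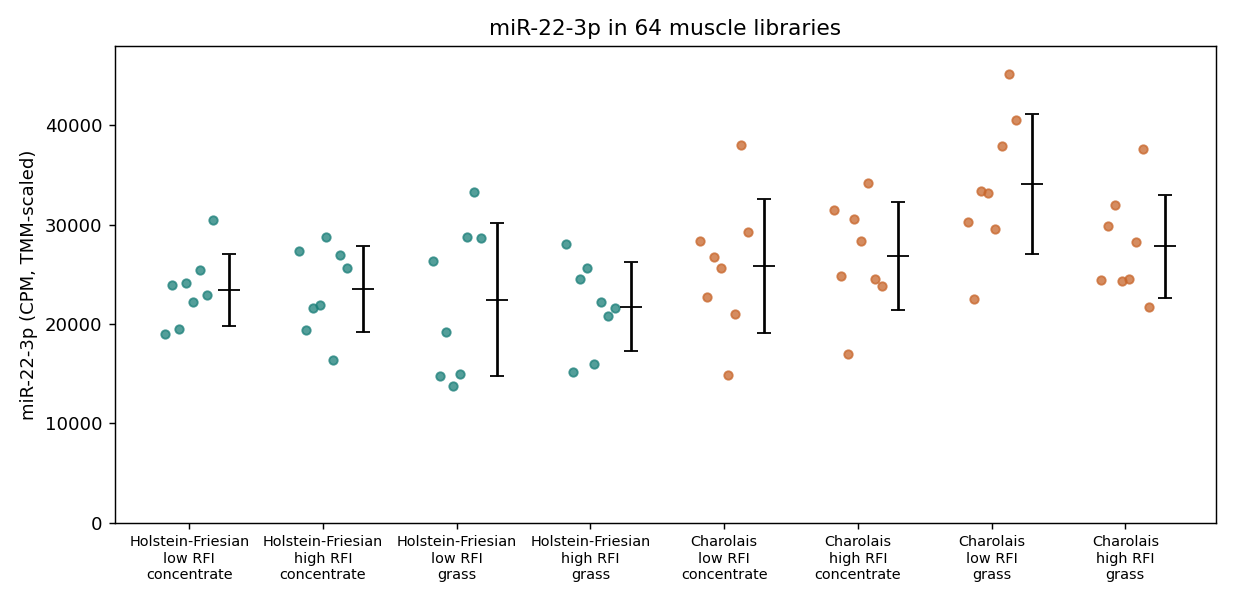
miR-22-3p level in CPM (TMM-scaled, linear axis from 0) in each of the 64 libraries. Each point is 1 library, and the bar beside each group is its mean ± SD (n = 8). The group means run from 21753 CPM in high-RFI Holstein-Friesian steers on grass to 34068 CPM in low-RFI Charolais on grass, and the point clouds overlap.

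Over all libraries, miR-22-3p averaged 22798 ± 5063 CPM in Holstein-Friesian and 28649 ± 6712 CPM in Charolais (n = 32 each). The fitted log2 difference was -0.32 ± 0.08 (SE), and 27 of 32 Holstein-Friesian libraries lay below the Charolais median. These values chose the miRNA and support nothing further. On grass the levels were 22108 ± 6088 CPM in Holstein-Friesian and 30957 ± 6792 CPM in Charolais (n = 16 each), a log2 difference of -0.48 ± 0.12. There, 15 of 16 Holstein-Friesian libraries lay below the Charolais median and 8 below the lowest Charolais library. On concentrate the levels were 23488 ± 3859 CPM in Holstein-Friesian and 26341 ± 5967 CPM in Charolais (n = 16 each), a log2 difference of -0.17 ± 0.12, with 12 of 16 Holstein-Friesian libraries below the Charolais median. The breed difference was thus larger on grass as measured. Among low-RFI steers the log2 breed difference was -0.37 ± 0.12, and among high-RFI steers it was -0.27 ± 0.12.

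The size of this difference moved with the scaling between libraries. It was -0.31 with RLE factors, -0.26 with upper-quartile factors, -0.17 with total counts and -0.15 with total counts after miR-10b was left out. In the same fits the median breed difference of all tested miRNAs moved too, from -0.02 under TMM to 0.12 with total counts and 0.17 with miR-10b left out. Relative to that median, miR-22-3p lay between -0.29 and -0.32 under the 5 scalings. On grass the relative difference was between -0.46 and -0.49, and on concentrate between -0.17 and -0.20. A change of scaling shifts all miRNAs nearly alike, and subtracting the median takes that shift out. The closeness of the relative values was thus largely set in advance. It is no support for the breed difference, whose values also picked the miRNA. Among high-RFI steers the difference as fitted was 0.006 with total counts, of the opposite sign to TMM, while relative to the median of all miRNAs it was -0.23. Without the 2 libraries whose scaling factors stood apart, the average breed difference was -0.32 under TMM.

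**Figure D2:**
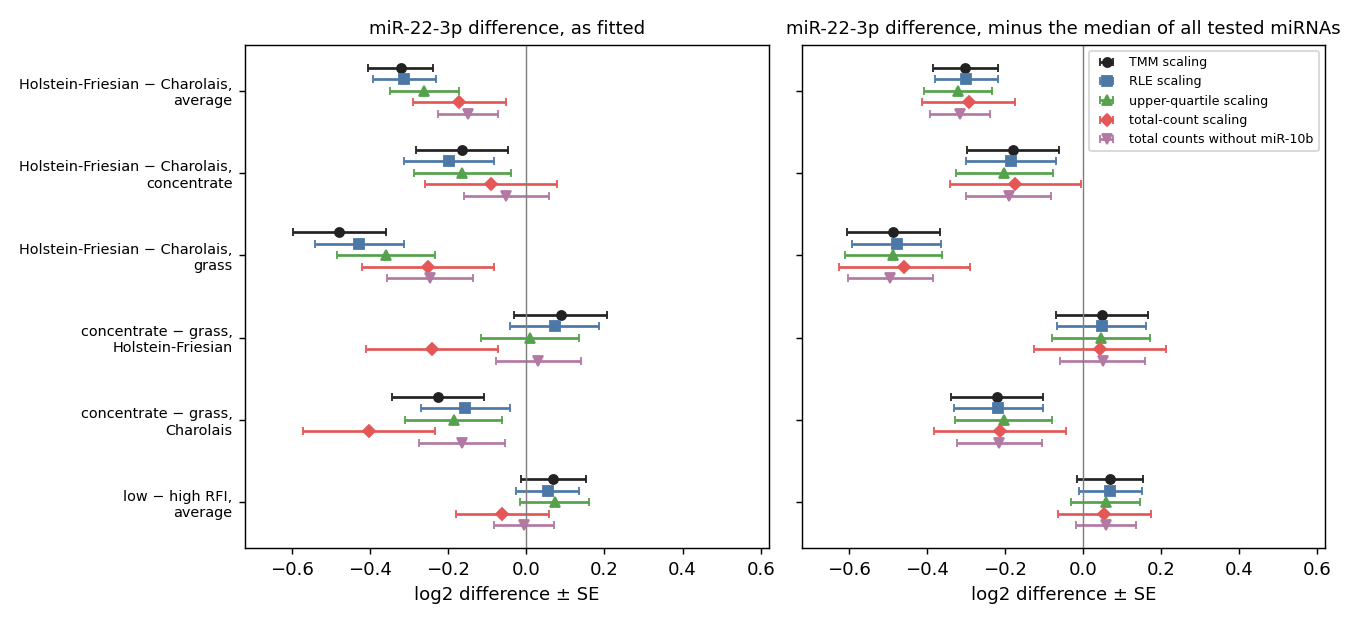
Log2 differences of miR-22-3p ± SE (x axis) for 6 contrasts (rows) under 5 scalings between libraries (symbols), as fitted on the left and minus the median difference of all tested miRNAs on the right. The average breed difference as fitted spreads from -0.32 to -0.15, and relative to the median it lies between -0.29 and -0.32. Subtracting the median takes out the shift that a scaling gives all miRNAs, so this closeness is no support for the difference.

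Whether diet changed miR-22-3p was tested with edgeR's quasi-likelihood test, with p-values adjusted by Benjamini-Hochberg over all 318 miRNAs. Concentrate libraries averaged 24914 ± 5151 CPM and grass libraries 26532 ± 7776 CPM (n = 32 each), and the log2 difference of -0.07 ± 0.08 did not pass (adjusted p = 0.55). Of the 318 miRNAs, 34% were called in this contrast. With total counts as the scaling, miR-22-3p was called lower on concentrate (log2 -0.32, adjusted p = 0.0253), in a fit where the median of all miRNAs also lay at -0.24; relative to that median, its difference was -0.08. Without low-RFI Holstein-Friesian grass replicate 7, and with the TMM factors refitted, the value was -0.0029. With the full-data TMM factors kept, leaving out any 1 library gave between -0.09 and -0.04. With each of the 64 libraries in turn as the TMM reference, the value lay between -0.08 and -0.01. In Charolais, concentrate libraries averaged 26341 ± 5967 CPM and grass libraries 30957 ± 6792 CPM. The log2 difference of -0.23 ± 0.12 did not pass (adjusted p = 0.167), with 12 of 16 concentrate libraries below the grass median, where 20.8% of miRNAs were called. In Holstein-Friesian, concentrate libraries averaged 23488 ± 3859 CPM and grass libraries 22108 ± 6088 CPM, a log2 difference of 0.09 ± 0.12 (adjusted p = 0.634), where 24.2% of miRNAs were called.

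The difference between these diet responses, the breed by diet interaction, was 0.31 ± 0.17 on the log2 scale (adjusted p = 0.285 by edgeR) and did not pass. In this contrast 3.46% of the miRNAs were called. The interaction does not use the average over the breeds, but the miRNA was picked with the breed values of both diets in view. The larger breed difference on grass is therefore a description of these steers.

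The 5 steers with a library on each diet give a comparison within animals. A Charolais steer of high RFI had 24859 CPM on concentrate and 24395 CPM on grass. A Holstein-Friesian steer of high RFI had 27323 CPM on concentrate and 28033 CPM on grass. A Charolais steer classed as low RFI on concentrate and high RFI on grass had 26728 CPM on concentrate and 29868 CPM on grass. Their log2 differences between concentrate and grass were 0.03, -0.04 and -0.16. A Charolais steer of low RFI had 25609 CPM on concentrate and 33233 CPM on grass. Another Charolais steer of high RFI had 24516 CPM on concentrate and 21742 CPM on grass. The level was lower on concentrate in 3 of 5 steers, and the mean log2 difference was -0.07 ± 0.21 (SD, n = 5; exact 2-sided sign-flip permutation test, p = 0.5625, with 0.0625 the smallest p it allows). With total counts the level was lower on concentrate in 5 of 5 steers (mean log2 difference -0.78, exact p = 0.0625), and with total counts without miR-10b in 4 of 5 (mean -0.23, exact p = 0.125). The Holstein-Friesian steer had the largest difference by both, -1.79 and -0.65. Its grass library was the one of highest TMM factor, 2.43. In the Charolais steers the total-count differences ran from -1.08 to -0.10. With total counts the median diet difference of all tested miRNAs, over all libraries, was also below 0 (-0.24).

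Low-RFI libraries averaged 26452 ± 7704 CPM of miR-22-3p and high-RFI libraries 24995 ± 5282 CPM (n = 32 each), a log2 difference of 0.07 ± 0.08 (edgeR adjusted p = 0.9998). The test took libraries as independent, although 5 steers gave a library on each diet. A Charolais steer among them was classed low RFI on concentrate and high RFI on grass. With the steer as a block, adjusted p was 0.998 (random, limma-voom) and 0.978 (fixed, edgeR). Low-RFI Charolais on grass had 7 of 8 libraries above the median of high-RFI Charolais on grass and 3 above its highest, and the log2 difference there was 0.29 ± 0.17 (edgeR adjusted p = 0.86). In the other 3 groups of breed and diet the log2 differences between low and high RFI were -0.0048 ± 0.17 (Holstein-Friesian on concentrate), 0.05 ± 0.17 (Holstein-Friesian on grass) and -0.06 ± 0.17 (Charolais on concentrate). No direction can be read from the Holstein-Friesian values: with each library in turn as the TMM reference, the sign was the opposite for 44 of 64 references on concentrate and for 59 of 64 on grass. The breed by RFI interaction is made of breed values by group, which were in view when the miRNA was picked. Neither this interaction (-0.10 ± 0.17, adjusted p = 0.906) nor the RFI by diet interaction (-0.20 ± 0.17, adjusted p = 0.971) passed. The edgeR test called 0% of the 318 miRNAs in each of these 7 contrasts. The count was also 0 in each of them by DESeq2 and by limma-voom. At an unadjusted p under 0.05, edgeR counted 11 miRNAs for the RFI average, between 10 and 34 within groups of breed and diet, 32 for breed by RFI and 14 for RFI by diet.

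miR-22-5p, from the other arm of the hairpin, was scarce beside miR-22-3p, at 103.0 ± 23.4 CPM (n = 64). On concentrate, Holstein-Friesian libraries had 71.2 CPM at the lowest, a median of 102.1 and 180.7 at the highest (mean 107.7 ± 23.9, n = 16). On grass, Holstein-Friesian libraries had 57.0, 84.8 and 133.3 CPM in the same order (mean 86.3 ± 20.6, n = 16). miR-22-5p was higher on concentrate in Holstein-Friesian steers (log2 0.32 ± 0.11, edgeR adjusted p = 0.0207), and 14 of 16 concentrate libraries lay above the grass median, although the ranges overlapped. The call was lost with upper-quartile factors (0.26, adjusted p = 0.0819), with total counts without miR-10b (0.27, adjusted p = 0.0528) and with no filter on low counts (0.27, adjusted p = 0.114), and with total counts the value was -0.04 (adjusted p = 0.88). The call also rested in part on the highest library, high-RFI Holstein-Friesian concentrate replicate 3: without it and with the other libraries' TMM factors kept, the value was 0.25 (adjusted p = 0.0654). Relative to the median of all miRNAs, the difference over all libraries was 0.28 under TMM and 0.25 with total counts. Subtracting the median takes out the shift common to all miRNAs, so these values lie close by construction. They were not tested and do not restore the call.

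In Charolais, miR-22-5p averaged 104.3 ± 21.0 CPM on concentrate and 113.7 ± 20.6 CPM on grass (n = 16 each), a log2 difference of -0.12 ± 0.11 (edgeR adjusted p = 0.448). Averaged over the breeds, its diet difference was 0.10 ± 0.08 (adjusted p = 0.323), and its RFI difference was -0.03 ± 0.08 (adjusted p = 0.9998). Its breed by diet interaction was 0.44 ± 0.15 (edgeR adjusted p = 0.0733) and did not pass. It passed without low-RFI Holstein-Friesian grass replicate 7 (0.50, edgeR adjusted p = 0.026) and, with the other libraries' TMM factors kept, without low-RFI Holstein-Friesian concentrate replicate 1 (0.47, adjusted p = 0.0437). As a description, the breed difference of miR-22-5p was -0.39 ± 0.11 on grass and 0.05 ± 0.11 on concentrate. Both arms come from 1 precursor, so the arms are not independent measures of a breed difference.

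The ratio of the arms within a library is free of any scaling between libraries. A library held 254 ± 53.2 miR-22-3p reads per miR-22-5p read (n = 64), between 119.9 and 403.6. The ratio was 226 ± 52.6 in Holstein-Friesian steers on concentrate and 256 ± 36.1 on grass. In Charolais it was 259 ± 68.7 on concentrate and 273 ± 42.7 on grass (n = 16 in each of the 4). Pooled over breeds, it was 242 ± 62.5 on concentrate and 265 ± 39.9 on grass. The log2 ratio was lower on concentrate by raw p alone (log2 difference -0.16, 2-sided permutation test of 100000 resamples within breed and RFI class, p = 0.0402), which did not pass after Benjamini-Hochberg adjustment over 4 tests of the ratio (adjusted p = 0.112). The log2 differences between concentrate and grass were -0.21 within Holstein-Friesian (permutation p = 0.0562, adjusted p = 0.112) and -0.11 within Charolais (permutation p = 0.324, adjusted p = 0.324). Between low and high RFI the log2 ratio differed by 0.10 (permutation p = 0.206, adjusted p = 0.275). These permutations treated all libraries as separate animals, although 5 steers gave a library on each diet.

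**Figure D3:**
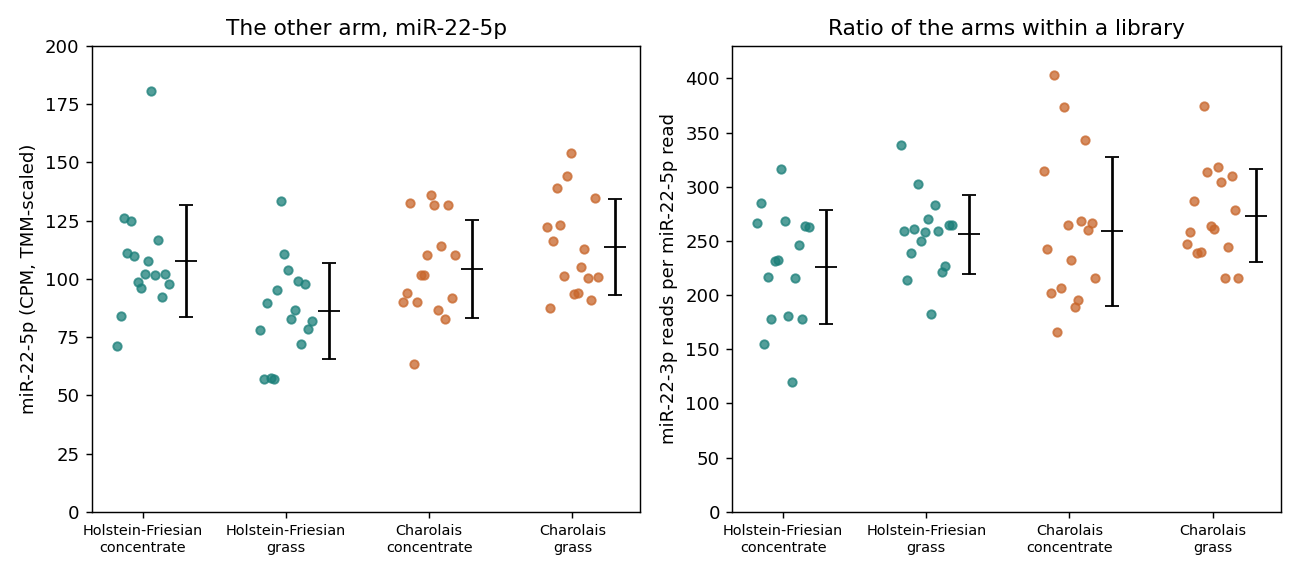
Left, miR-22-5p level in CPM (TMM-scaled). Right, miR-22-3p reads per miR-22-5p read within a library. Points are libraries, grouped by breed and diet, and bars are means ± SD (n = 16). The miR-22-5p mean is 107.7 CPM on concentrate and 86.3 CPM on grass in Holstein-Friesian steers, and all ratios lie between 119.9 and 403.6.

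Under TMM scaling, miR-22-3p varied across the 64 libraries most like miR-133a, a miRNA made in striated muscle that bears on myoblast proliferation and differentiation. Pearson's r of their log2 CPM was 0.88 (Spearman's rho 0.87), against a median r of 0.04 over the 171 other miRNAs that averaged 10 CPM or more. Next in likeness came miR-29a (r 0.86, rho 0.84), of a family that targets collagen and other matrix transcripts, miR-193b (r 0.82, rho 0.78), miR-331-3p (r 0.81, rho 0.77) and miR-378 (r 0.80, rho 0.73), which lies in Ppargc1b in mice and bears on oxidative metabolism. All these values share libraries and scaling factors, so they are given without p-values. In deviations from the 8 group means, which hold no difference between groups, the order was miR-133a (r 0.86), miR-29a (r 0.83), miR-30c (r 0.79), miR-30b-5p (r 0.78) and miR-378 (r 0.77), against a median of 0.07. The order depended on the scaling. With total counts without miR-10b, miR-29a came first (r 0.80) and miR-133a was at rank 2 (r 0.79), against a median of 0.10. With total counts, where the median r was 0.57, miR-29a came first (r 0.92) and miR-133a was at rank 4 (r 0.90), after miR-30c and miR-30b-5p. miR-22-5p, from the same hairpin, reached 0.62 across libraries and 0.54 in deviations.

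**Figure D4:**
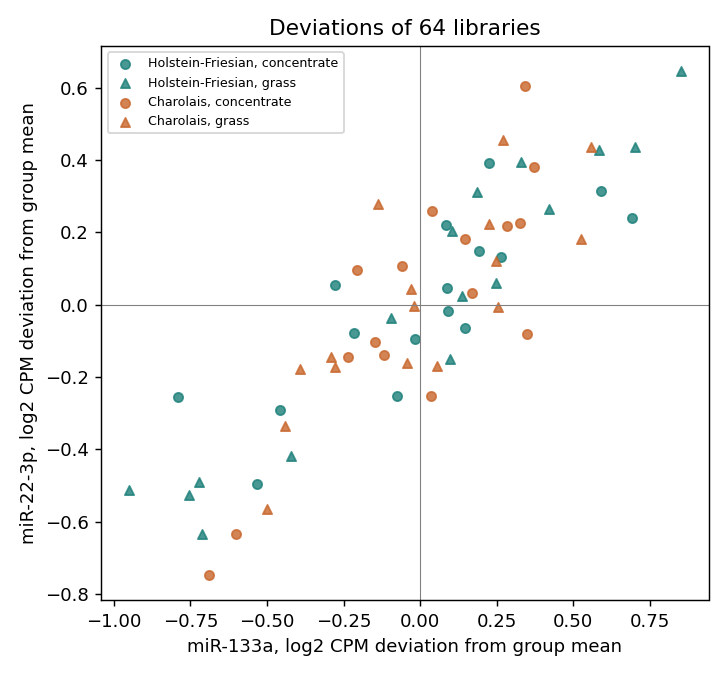
Deviation of log2 CPM (TMM-scaled) from the group mean for miR-133a (x axis) and miR-22-3p (y axis) in 64 libraries, with colour for breed and shape for diet. Libraries high in miR-133a for their group were high in miR-22-3p, with r 0.86 across libraries.

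Within a library, the log2 ratio of miR-22-3p to miR-133a averaged -1.54 in Holstein-Friesian and -1.49 in Charolais, a difference of -0.05. On grass, where the miR-22-3p breed difference was -0.48, the ratio to miR-133a differed by -0.01 between the breeds, and on concentrate by -0.09. The ratio to miR-29a differed by -0.14 between Holstein-Friesian and Charolais. The ratio to miR-486, a muscle-enriched miRNA that is also abundant in red cells, differed by 0.14. miR-133a and miR-29a were named for varying with miR-22-3p across these same libraries, breeds included, which brings such ratios near each other in the breeds. The ratios also use the values by which miR-22-3p was picked and are given with no test. In bulk muscle, fewer cells of a type and less RNA per cell cannot be told apart.

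Markers of blood cells were higher on concentrate. On that diet miR-22-3p averaged lower in Charolais (log2 -0.23) and higher in Holstein-Friesian (log2 0.09), and neither difference passed the test. The summed level of the erythrocyte miRNAs miR-451 and miR-144 had a median of 4991 CPM on concentrate (range 680 to 49568) and 2321 CPM on grass (range 300.2 to 11353). In Charolais the medians were 4792 CPM on concentrate and 1694 CPM on grass, and in Holstein-Friesian 5326 CPM on concentrate and 2689 CPM on grass. Both erythrocyte miRNAs and 5 of 6 leukocyte miRNAs were called higher on concentrate averaged over the breeds (edgeR), where 34% of all miRNAs were called in either direction; of the leukocyte markers, miR-155 was not called. With total-count scaling 0 of these 8 were called, although their medians kept the same sign. Leukocyte calls numbered 3 of 6 with upper-quartile scaling and with total counts without miR-10b. Without the filter on low counts, 2 of 6 leukocyte miRNAs and 1 of 2 erythrocyte miRNAs were called. In Holstein-Friesian alone, 0 of 2 erythrocyte and 2 of 6 leukocyte miRNAs were called higher on concentrate (24.2% of all miRNAs), and in Charolais 2 of 2 and 3 of 6 (20.8%). The leukocyte sum had medians of 678 CPM on concentrate (range 368 to 2567) and 507.5 CPM on grass (range 255 to 1346). By breed, the erythrocyte medians were 3218 CPM in Holstein-Friesian and 4160 CPM in Charolais, and the leukocyte medians 611 CPM in Holstein-Friesian and 591 CPM in Charolais. In deviations from group means under TMM scaling, miR-22-3p had an r of -0.54 with miR-451, -0.51 with miR-144 and -0.55 with the leukocyte miRNA miR-142-5p. These r values were -0.23, -0.20 and -0.21 when libraries were scaled to total counts without miR-10b. With total counts they were 0.14, 0.21 and 0.29, of the opposite sign. The other leukocyte miRNAs that averaged 10 CPM or more differed among themselves. Under TMM their r was -0.61 (miR-142-3p), -0.43 (miR-155), -0.24 (miR-342) and -0.14 (miR-150). With total counts without miR-10b these were -0.26, -0.10, -0.03 and 0.03. The part of blood RNA in the miR-22-3p values was not tested.

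Around miR-22-3p, a list of 8 muscle miRNAs (myomiRs) was followed, and all 8 were tested. Of the myomiRs, 1 of 8 was called higher on concentrate and 0 lower on the diet average (median log2 difference 0.08, against 0.01 over all miRNAs), where 34% were called. The called one was miR-1, which promotes muscle differentiation (log2 0.47 ± 0.09, edgeR adjusted p = 2.99e-05). Its mean level was 247 CPM, against 74311 CPM for miR-133a. It is named after its values were seen. On the diet average it was not called with total-count scaling, where miR-133a and miR-208b were called lower. With RLE scaling miR-206 was called higher beside it. The 4 myomiRs of highest level, miR-486 (0.17 ± 0.09), miR-133a (-0.06 ± 0.10), miR-133b (-0.02 ± 0.12) and the myosin-encoded miR-208b (-0.08 ± 0.10), were not called under TMM. Within Holstein-Friesian, 1 of 8 was called higher on concentrate and 0 lower, again miR-1 (0.78 ± 0.13), where 24.2% of all miRNAs were called. Within Charolais, 0 of 8 were called, where 20.8% were. The breed by diet interaction of miR-1 passed under TMM (0.61 ± 0.18, edgeR adjusted p = 0.0377), where 3.46% of all miRNAs were called. Calls in this contrast numbered 11 under TMM, 1 with total counts and 7 with total counts without miR-10b. Whether miR-1 stayed among them was not examined. Between low and high RFI, 0 of the 8 were called by edgeR, where 0% of the 318 miRNAs were called.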

How the data were processed

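Small RNA of skeletal muscle was sequenced in 64 libraries. The kits were Qiagen RNeasy Plus Universal for RNA and Illumina TruSeq stranded for the libraries, per the labels' protocols. The build ARS-UCD1.2 is named in the submitters' processing notes beside cutadapt 2.6, FastQC 0.11.8, edgeR 3.5 and R 3.4, with no role stated. Aligner, counter and miRNA annotation: not given in the sources used here. What the authors deposited is 1 table of estimated counts, not normalized. Of its 1030 names, 226 were at 0 throughout and 61 held fractional values (neither miR-22 arm did). Values were rounded to whole counts, and miR-2285b, with empty cells, was left out.

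Groups came from the labels. edgeR 4.0.16 (R 4.3.3) with TMM factors, filterByExpr and robust quasi-likelihood fits of 8 group means (56 residual degrees of freedom) tested 318 miRNAs, while the untested names carried 0.00592% of all counts. The 11 contrasts tested were concentrate minus grass, low minus high RFI and the interactions; Holstein-Friesian minus Charolais was only described. TMM took low-RFI Holstein-Friesian grass replicate 2 as its reference library. Calls used a Benjamini-Hochberg adjusted p of 0.05. Correlations used log2 CPM with a prior count of 2, and arm ratios used log2 with 1 added to each count. Permutations used scipy 1.17.1 and numpy 2.4.6. Alternatives were other scalings, no filter, DESeq2 1.42.0, limma-voom 3.58.1, a block for the steer, other TMM references, and leaving out libraries. The fits were tested on simulated counts.

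The labels' animal numbers pair the libraries of 5 steers. The deviations from group means correlated between a steer's libraries at 0.288, -0.111, 0.165, 0.398 and 0.599, and the correlation estimated for the random block was 0.392. The replicates of a group were separate steers.

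miR-22-3p and all lists were chosen with earlier results of these data known. The text names both miR-22 arms, the 5 miRNAs most like miR-22-3p by each correlation, the 4 of highest CPM in the myomiR list, the cell type markers, and, after its value was seen, the called myomiR. A second list is not reported here.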

Additional observations from a re-analysis of the deposited data

Results flagged for a closer look

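Of 24 groups of 8 values examined (both arms and their ratio in each of the 8 groups), 1 held a library that stood apart; chance alone flags about 1 group in 20. miR-22-5p was at 180.691 CPM in high-RFI Holstein-Friesian concentrate replicate 3, against 116.8213 CPM in the next library of that group. This gap was 0.722 of the group's range, above the 0.526 that marks a value far from 8 replicates. Without this library, the miR-22-5p difference between concentrate and grass in Holstein-Friesian was 0.28 on the log2 scale (edgeR adjusted p = 0.0293), and the breed by diet interaction was 0.36 (adjusted p = 0.128). With the other libraries' TMM factors and the tested miRNAs kept as they were, the diet difference without it was 0.25 (adjusted p = 0.0654).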

How the results depend on the processing

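All values here are log2 differences or counts of called miRNAs, and no cause of a change was tested. With RLE scaling, low minus high RFI was 0.02299 in Holstein-Friesian on concentrate and -0.03124 on grass. Upper-quartile scaling gave 0.2167 and -0.01785 for these, 0.05322 for breed by RFI, and 0.2552 for miR-22-5p by diet in Holstein-Friesian, no longer called. With total counts, miR-22-3p by diet was -0.3224 on average (called) and -0.2414 in Holstein-Friesian. Its RFI difference was then -0.06166 on average, -0.209 in Holstein-Friesian on grass and 0.05987 in Charolais on concentrate, and its breed difference in high RFI was 0.006024. miR-22-5p by diet was -0.1874 on average and -0.03614 in Holstein-Friesian, and calls numbered 42 for diet in Charolais and 1 for breed by diet. Total counts without miR-10b gave -0.005362 for RFI on average, -0.05027 in Holstein-Friesian on grass, 0.2744 for miR-22-5p by diet in Holstein-Friesian (no longer called) and 7 breed by diet calls. With no filter, RFI in Holstein-Friesian on grass was -0.03356, and miR-22-5p by diet in Holstein-Friesian was 0.2656, no longer called. DESeq2 gave 0.023 and -0.03125 for RFI in Holstein-Friesian on concentrate and on grass. With the steer as a random replicate block, RFI in Holstein-Friesian on concentrate was 0.01053. With a fixed replicate block it was 0.03987, and breed by RFI was 0.006096; the block changed no call of a miR-22 arm. Without the repeated steers' concentrate libraries, RFI in Holstein-Friesian was 0.03263 on concentrate and -0.06003 on grass, and 7 breed by diet calls were made. Without the 2 libraries of most extreme scaling factor, an alternative chosen after seeing the data, RFI in Holstein-Friesian on concentrate was 0.02895. With each library in turn as the TMM reference, also chosen after seeing the data, RFI in Holstein-Friesian reached 0.07022 on concentrate and -0.07845 on grass. miR-22-5p by diet in Holstein-Friesian was called under 64 of 64 references, and its breed by diet value under 1 of 64 (0.4856). Leaving out each library in turn also changed the miRNAs tested (320 to 325) and the TMM reference, so it was run again, after seeing the data, with the 318 miRNAs and the full-data factors kept. Low minus high RFI ranged from -0.06207 to 0.09878 with refitted factors and -0.06782 to 0.04209 with kept factors in Holstein-Friesian on concentrate, from -0.1505 to 0.02897 and -0.05654 to 0.1243 on grass, and from -0.1706 to 0.004951 and -0.1572 to 0.02831 in Charolais on concentrate. The diet average of miR-22-3p ranged from -0.07022 to -0.002916 refitted and -0.09442 to -0.04347 kept. For miR-22-5p, RFI on average ranged from -0.09331 to -0.02102 refitted and -0.05877 to 0.004363 kept. Its diet difference in Holstein-Friesian ranged from 0.2774 to 0.4163 refitted (adjusted p 0.00129 to 0.0413) and 0.253 to 0.3793 kept, where the call was lost without high-RFI Holstein-Friesian concentrate replicate 3. Its breed by diet value ranged from 0.3598 to 0.4979 refitted and 0.3758 to 0.5021 kept. Breed by diet calls ranged from 8 to 29 refitted (29 without low-RFI Holstein-Friesian grass replicate 7) and 8 to 27 kept, and diet calls in Charolais from 40 (without high-RFI Charolais concentrate replicate 3) to 85 refitted and 41 to 76 kept. In the 5 repeated steers, leaving out each gave -0.1365 to 0.000775. The other 309 values outside the leave-one-out fits kept their direction and side of the threshold, or a count within 1.5 times.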
